A study of Mus musculus with 6 samples.

Results

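The lymphatic endothelial cells of the developing mouse lung were the 322 cells, of 61839 cells that passed the study's filters, that carried the lymphatic label in the authors' deposited cell annotation. They made up 0.521% of all cells and 2.94% of the 10969 endothelial cells, and 8 of the 34 annotated cell types held fewer cells. Whole lungs of 36 C57BL/6 mice were dissociated and profiled by single-cell RNA sequencing (10x Genomics 3' chemistry, which counts RNA molecules by unique molecular identifiers, UMIs). Pups were kept in room air (21% O2, normoxia) or in 85% O2 (hyperoxia) from the day of birth (P0) until harvest on postnatal day (P) 3, 7 or 14, with 6 mice in each of the 6 groups, and dams were rotated every 48 h. Hyperoxia is a model of the arrested alveolar growth of bronchopulmonary dysplasia. The cells of each mouse were tagged with a lipid-anchored sample barcode (MULTI-seq) and mice were then pooled, so that a mouse is the replicate and a pool is a batch that holds normoxic and hyperoxic mice of 1 or 2 ages.

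Lymphatic vessels collect fluid, protein and leukocytes from the tissue and return them to the blood, and in the newborn lung they clear fluid from around the airways and large vessels. Their endothelium arises mainly from veins under the transcription factor *Prox1*, helped by *Sox18* and *Nr2f2*, and it grows in response to VEGF-C and VEGF-D, which act through the receptor *Flt4* (VEGFR-3) and its co-receptor *Nrp2*. Lymphatic endothelial cells release the chemokine *Ccl21a*, which draws dendritic cells and T cells carrying its receptor into the vessel.

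The annotated cells were first described by the genes that define the type. *Prox1* (chromosome 1, 190118035 to 190170714, minus strand, GRCm38) stood at 713 ± 217 CPM (the gene's share of all UMI counts of the cells, scaled to a common total) in lymphatic cells (mean ± SD over the 29 mice with at least 5 such cells), and the next type, venous cells, was at 12.1 CPM. *Mmrn1* (chromosome 6, 60924976 to 60989378, plus strand), which encodes a large secreted multimerin, was at 1982 ± 693 CPM against 11.1 CPM in the next type. *Ccl21a* (chromosome 4, 42772860 to 42773993, minus strand) was at 6552 ± 2244 CPM against 4.29 CPM, although the mouse genome holds near-identical copies of this gene, so that its level depends on how their reads were assigned. *Flt4* (chromosome 11, 49609263 to 49652739, plus strand) was at 665 ± 218 CPM, with 91.2 CPM in the *Car4*+ capillary cells known as aerocytes (aCap) and 59.1 CPM in the other capillary cells (gCap). All 4 genes were higher in lymphatic cells than in any of the other 33 types, as the plot of marker levels by mouse shows for the 5 endothelial types. Because the annotation was made from the expression of these cells, these levels are a description and were not tested.

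**Figure D1:**
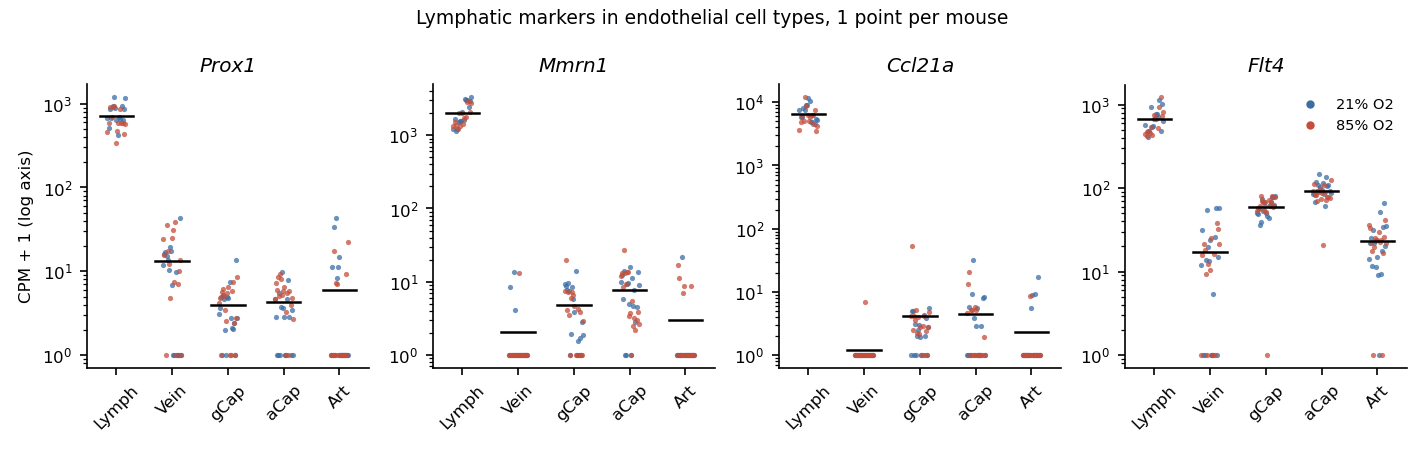
Level of *Prox1*, *Mmrn1*, *Ccl21a* and *Flt4* in each mouse (vertical axis, CPM + 1 of the summed cells, log scale) in 5 endothelial types (horizontal axis), with normoxic mice in blue, hyperoxic mice in red and a line at the mean. In lymphatic cells the means are 713, 1982, 6552 and 665 CPM, and *Flt4* is the marker with the nearest other type, at 91.2 CPM in aCap cells.

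Cell by cell, 253 of the 322 cells held a UMI of all 4 markers, 46 of 3, 22 of 2 and 1 cell of 1 marker. *Mmrn1* was detected in 98.4% of the cells, *Ccl21a* in 91.9%, *Flt4* in 91.6% and *Prox1* in 89.1%. When each cell was thinned to 1000 UMIs, which removed 3 cells below that number, the shares were 81.8%, 87.5%, 50.2% and 46.4% in the same order. Detection of the transcription factor and the receptor thus followed depth most closely.

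Of the genes at 100 CPM or more in lymphatic cells, those that separated them most widely from the other endothelial types were, after *Ccl21a*, *Reln* (the secreted glycoprotein reelin, 506 CPM against at most 0.457 CPM in another endothelial type), the sodium channel gene *Scn3a* (233 CPM), *Ptx3* (a secreted pentraxin, 551 CPM), *Dtx1* (a Notch-pathway ubiquitin ligase, 114 CPM), *Fxyd6* (532 CPM), *Slc45a3* (171 CPM), *Tbx1* (a T-box transcription factor needed for lymphatic growth, 212 CPM), *Mmrn1* and *Thy1* (204 CPM, a surface protein that T cells share). The co-receptor *Nrp2* was at 1185 ± 402 CPM, the highest of the 34 types. *Maf* was at 632 CPM, *Nts* (the precursor of the peptide neurotensin) at 893 CPM and *Nr2f2* at 474 ± 202 CPM, the last beside 465 CPM in a pericyte type. Not every gene named for lymphatics was particular to them. *Lyve1*, the hyaluronan receptor, averaged 1464 CPM in lymphatic cells, 1822 in arterial, 1177 in gCap, 1072 in venous and 823 CPM in aCap cells, and *Pdpn* (podoplanin), at 150 CPM, was lower than in alveolar type 1 cells. *Pecam1*, the pan-endothelial adhesion molecule, was at 425 CPM, the lowest of the 5 endothelial types, and the VEGF-A receptor *Kdr* was at 633 CPM, between 1823 CPM in aCap and 331 CPM in venous cells. Levels compared between genes here are UMI counts and carry no length correction.

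The lymphatic cells had a median of 5945 UMIs (lowest 797, highest 108515) and 2497.5 genes each, 2653420 UMIs in all, and a median of 5.77% mitochondrial counts. By library, the median ran from 3663 to 8452 UMIs. In 302 of the 322 cells the assigned sample barcode was also the most frequent one. Of 394 cell barcodes that occurred in more than 1 library 9 belonged to lymphatic cells, and none was shared between lymphatic cells. The surfactant gene *Sftpc*, which these cells should lack, gave a UMI in 93.2% of them, and in 51.1% after thinning to 1000 UMIs, against 54.8% to 66.6% in the other endothelial types thinned likewise, and shares of cells with a UMI are to be read against that level. Summed over a mouse's lymphatic cells, the 14 epithelial markers ranged from 1038 to 4687 CPM, the 15 immune markers reached 4757 CPM in 1 mouse (P3, 85% O2, replicate 2), with *Nkg7* at 0, the 15 stromal and mesothelial markers ranged from 60.5 to 881 CPM, and the 5 erythroid markers reached 35054 CPM in 1 mouse (P7, 21% O2, replicate 6) and at most 344 CPM elsewhere.

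Hyperoxia was first compared with normoxia for the share of lymphatic cells. At P14, where the difference was widest, the share of all cells ranged from 0.264% to 0.659% (median 0.394%) in hyperoxic mice and from 0.337% to 0.922% (median 0.626%) in normoxic mice. The groups overlapped. The means were 0.444% ± 0.149 and 0.619% ± 0.239 (SD, n = 6 each; exact two-sided permutation test, p = 0.160, adjusted p = 0.395 over 102 comparisons of types and ages). At P7 the means were 0.497% ± 0.348 in hyperoxia, where 1 mouse with 125 cells had no lymphatic cell, and 0.509% ± 0.238 in normoxia. At P3 they were 0.442% ± 0.209 and 0.452% ± 0.163. Neither difference passed (exact permutation tests, n = 6 each, adjusted p = 0.969 at P7 and 0.953 at P3). As a share of endothelial cells, lymphatic cells were at 3.16% ± 1.37 in hyperoxia and 2.49% ± 0.682 in normoxia at P14, a difference in the other direction (exact permutation test, n = 6 each, adjusted p = 0.838).

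The pools did not give the same order, as the plot of shares by mouse shows. In 1 of the P14 pools the 3 normoxic mice held 0.758% to 0.922% and the 3 hyperoxic mice 0.264% to 0.402%, without overlap. In the other P14 pool the mean was 0.412% in normoxia and 0.537% in hyperoxia. The P3 and P7 mice were likewise split over pools with opposite signs. A pool's 3 mice against 3 cannot give an exact p below 0.10, and these within-pool differences were not tested. For comparison, gCap cells made up 5.31% ± 1.24 of all cells in hyperoxia and 16.4% ± 3.18 in normoxia at P14, and 5.57% ± 1.24 and 10.4% ± 1.58 at P7 (exact permutation tests, n = 6 each, p = 0.00216, the smallest this design allows, adjusted p = 0.0245). Among normoxic mice no difference between ages in the share of lymphatic cells passed (exact permutation tests, adjusted p = 0.327 to 0.778).

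**Figure D2:**
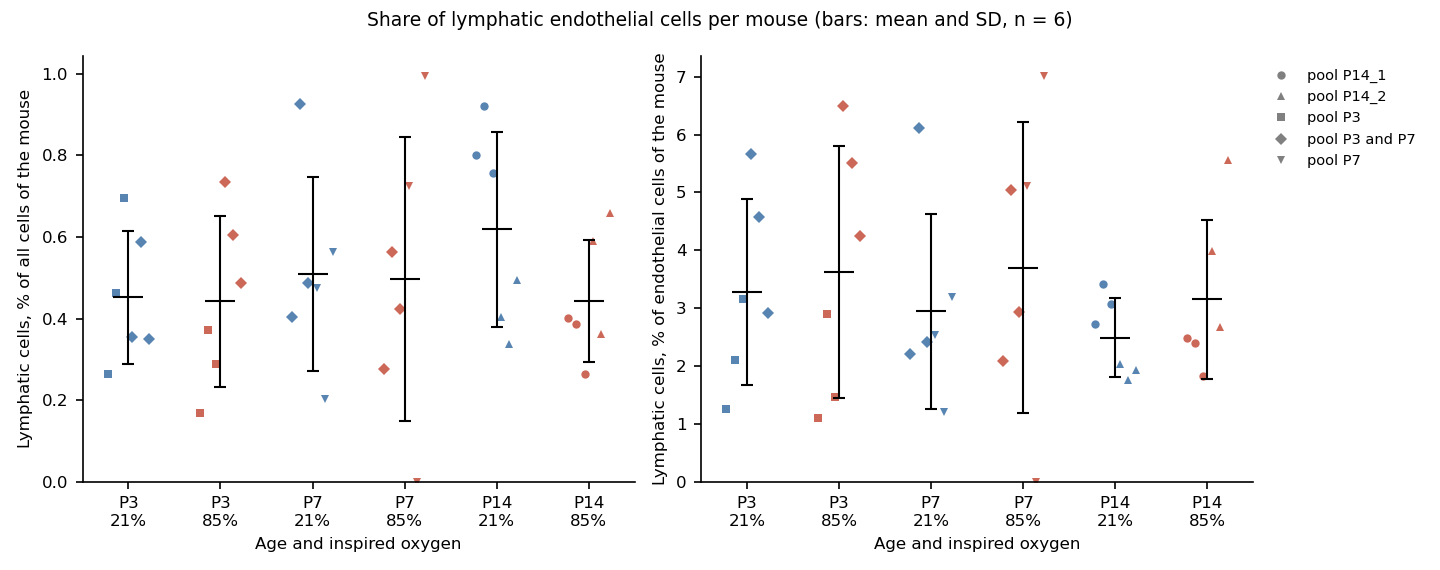
Lymphatic cells of each mouse as a percent of all its cells (left) and of its endothelial cells (right), by age and oxygen (horizontal axis). Marker shapes stand for pools, and bars show the mean and SD of 6 mice. At P14 the group means are 0.444% in hyperoxia and 0.619% in normoxia, with overlapping mice and pools of opposite sign.

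Gene expression was compared on the summed UMI counts of each mouse's lymphatic cells, in the 29 mice with at least 5 of them (4 to 6 mice a group), by edgeR's quasi-likelihood test with Benjamini-Hochberg adjustment. Changed genes were those whose adjusted p lay under 0.05 and that gave a UMI in 10% or more of the lymphatic cells of either group, and fold changes are log2 differences of the fitted levels. With all ages in 1 model and age as a covariate, 24 of 1541 genes tested rose in hyperoxia (1.56%) and 14 fell (0.909%), which is 38 genes or 2.47% in all. With the pool as a replicate block the number was 69. Leaving out 1 mouse moved it to between 20 and 25 for 9 of the mice, namely P3 replicates 5 (21% O2) and 2 (85% O2), at 21 each, P7 replicates 2 (21% O2), at 22, and 3 (85% O2), at 20, P14 normoxic replicates 3, 5 and 6, at 22, 23 and 23, and P14 hyperoxic replicates 1 and 6, at 25 and 20.

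*Gas6*, a secreted ligand of the receptor tyrosine kinases Tyro3, Axl and Mertk, rose most. At P14 the 6 normoxic mice stood at 140, 241, 69.0, 91.7, 100 and 69.4 CPM and the 4 hyperoxic mice at 448, 761, 561 and 616 CPM. At P7 the values were 67.8, 52.5, 135, 146 and 212 CPM in normoxia and 497, 453, 286, 206 and 180 CPM in hyperoxia, and at P3 they were 170, 70.5, 62.5 and 18.3 against 220, 188, 183, 123 and 167 CPM. The groups were apart at P14 and overlapped at P7 and P3. Over all ages *Gas6* (chromosome 8, 13465374 to 13494490, minus strand) rose by 1.76 ± 0.23 on the log2 scale (SE; edgeR adjusted p = 7.6e-06), was higher in hyperoxia in all 6 combinations of pool and age, and stayed past the threshold whichever mouse was left out. In all other cells of the lung together *Gas6* was also higher in hyperoxia, with means of 351 CPM against 174 CPM at P14, and the part of free RNA in the lymphatic difference was not tested.

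*Serpine2* (protease nexin-1, an inhibitor of thrombin and plasminogen activators; chromosome 1, 79794197 to 79861180, minus strand) had the next largest rise. It ranged from 53.7 to 201 CPM in normoxic and from 228 to 828 CPM in hyperoxic mice at P14, without overlap, from 37.5 to 189 and from 107 to 447 CPM at P7, and from 35.2 to 63.7 and from 60.5 to 151 CPM at P3. Its log2 fold change was 1.61 ± 0.26 (edgeR adjusted p = 0.00023), again higher in 6 of 6 combinations and in every fit that left out a mouse.

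For the other genes that rose, the values that follow are log2 fold changes ± SE with the edgeR adjusted p. *Ctla2a*, a cysteine protease inhibitor, rose by 1.12 ± 0.21 (adjusted p = 0.0025), *Igfbp7*, a secreted insulin-like growth factor binding protein of vessels, by 0.77 ± 0.18 (adjusted p = 0.013), *Col4a2*, a chain of basement membrane collagen IV, by 0.70 ± 0.15 (adjusted p = 0.010), and *Ifitm3*, an interferon-induced membrane protein, by 0.73 ± 0.15 (adjusted p = 0.0074), from a mean of 1208 ± 315 CPM in 15 normoxic to 2021 ± 801 CPM in 14 hyperoxic mice. *Aldoa*, a glycolytic aldolase, rose by 0.62 ± 0.14 (adjusted p = 0.013). The calls of *Ctla2a*, *Igfbp7*, *Col4a2* and *Aldoa* held whichever mouse was left out. Of the 26 genes picked for naming over all ages, 20 lost the call with at least 10 cells a mouse and 12 with cells whose assigned sample barcode was the highest. *Gas6*, *Serpine2* and *Ctla2a* kept it under both, and *Igfbp7*, *Col4a2* and *Aldoa* lost it under the first. *Id1*, a target of BMP signalling, rose by 1.16 ± 0.31 (adjusted p = 0.039), *Clca3a1*, a chloride channel accessory protein, by 1.21 ± 0.33 (adjusted p = 0.041), *Tgm2*, transglutaminase 2, by 0.79 ± 0.22 (adjusted p = 0.045), *Gpx1*, which reduces hydrogen peroxide, by 0.60 ± 0.16 (adjusted p = 0.039) and *Fth1*, the ferritin heavy chain, by 0.52 ± 0.14 (adjusted p = 0.044). Each of these 5 lost its call when certain single mice were left out, *Id1* for 8 of the 29 mice and *Tgm2* for 17. *Lcn2* (lipocalin-2, which binds iron-carrying siderophores) rose by 1.27 ± 0.36 (adjusted p = 0.045), a call lost for 20 of the 29 mice. *Lcn2* was highest in a neutrophil type, at 13542 CPM, and the other cells of the P14 lungs held 970 CPM of it in hyperoxia and 218 CPM in normoxia.

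**Figure D3:**
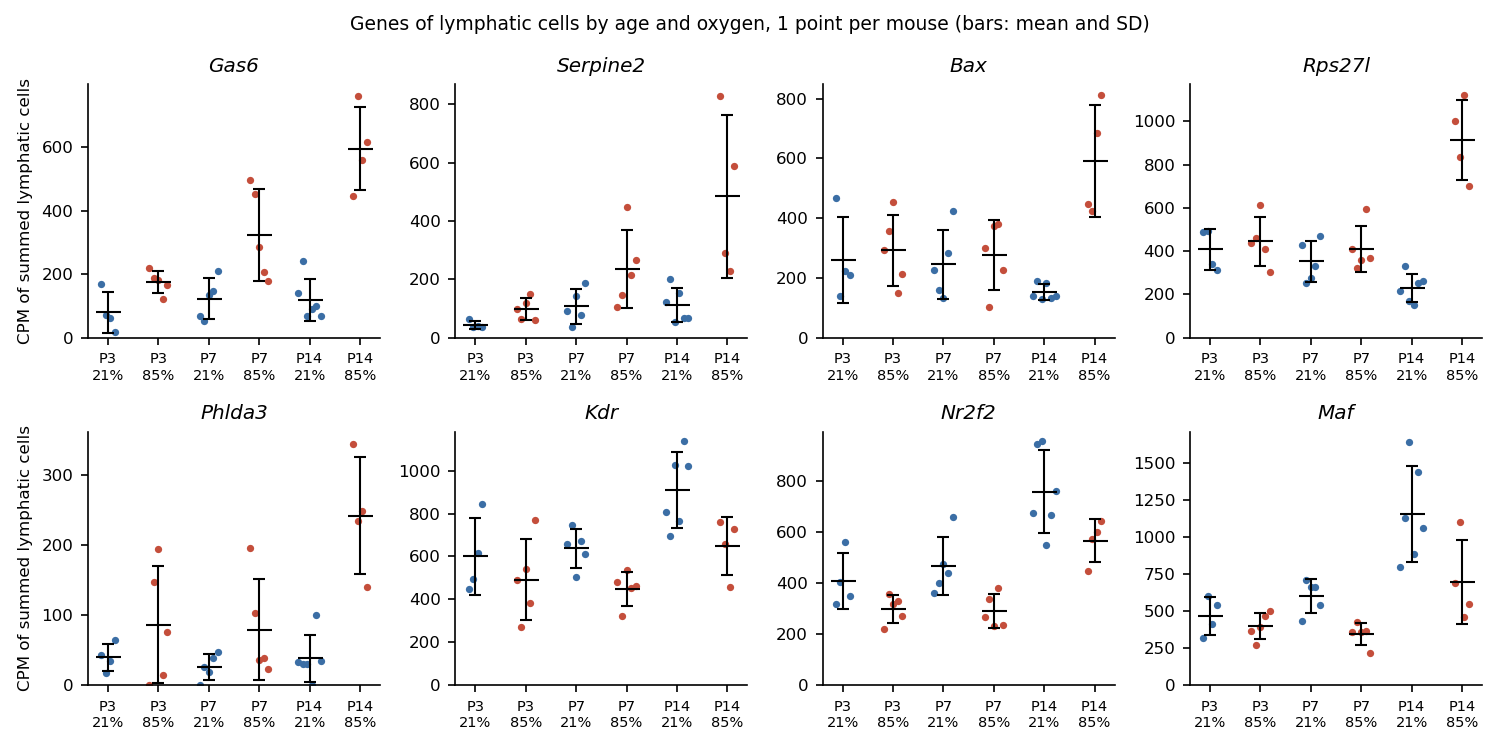
Level of *Gas6*, *Serpine2*, *Bax*, *Rps27l*, *Phlda3*, *Kdr*, *Nr2f2* and *Maf* in the lymphatic cells of each mouse (vertical axes, CPM), by age and oxygen (horizontal axes), with lines at group means. *Gas6*, *Serpine2*, *Bax*, *Rps27l* and *Phlda3* do not overlap between oxygen groups at P14. Over all ages *Kdr*, *Nr2f2* and *Maf* lie lower in hyperoxia with overlapping mice, though *Maf* does not overlap at P7.

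*Maf*, *Nr2f2* and *Kdr* were among the genes that fell. *Maf*, a transcription factor of lymphatic endothelium, stood at 602 ± 115 CPM in normoxia and 344 ± 75.6 CPM in hyperoxia at P7, where the groups did not overlap, and at 1158 ± 325 and 698 ± 284 CPM at P14, where they did. Its log2 fold change over all ages was -0.64 ± 0.15 (edgeR adjusted p = 0.013), but it was not called at P7 or P14 alone. *Nr2f2* (COUP-TFII), the partner of *Prox1* in the lymphatic programme, fell by 0.54 on the log2 scale (SE 0.12, adjusted p = 0.013), from a median of 550 CPM (318 to 958) in 15 normoxic mice to 332 CPM (220 to 644) in 14 hyperoxic mice. Both were lower in 6 of 6 combinations of pool and age and kept their calls without any 1 mouse, but both stood at an adjusted p of 0.071 when cells were thinned to at most 4000 UMIs. *Kdr* (VEGFR-2; chromosome 5, 75932827 to 75978458, minus strand) had a median of 694 CPM (446 to 1138) in normoxia and 484 CPM (272 to 772) in hyperoxia, with a log2 fold change of -0.46 ± 0.13 (adjusted p = 0.045, and 0.012 with the pool as block). It was lower in all 6 combinations, and its call was lost for 20 of 29 mice left out. *Ets1*, an endothelial transcription factor, had a log2 fold change of -0.55 ± 0.14 (adjusted p = 0.037), a call lost for 10 of the 29 mice. *Pmepa1*, a target and brake of TGF-beta signalling, had one of -1.18 ± 0.25 (adjusted p = 0.0097), *Selenop*, the selenium transport protein, of -0.82 ± 0.19 (adjusted p = 0.013) and *Tril*, a Toll-like receptor interactor, of -1.15 ± 0.28 (adjusted p = 0.023).

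For some of the genes that fell, the rest of the lung moved alike. *Aqp1*, a water channel of endothelium and mesothelium, had a log2 fold change of -1.20 ± 0.31 (edgeR adjusted p = 0.029), with P14 means of 851 ± 330 CPM in normoxia and 342 ± 312 CPM in hyperoxia. In all other cells together it stood at 226 and 104 CPM. *Npnt*, the matrix protein nephronectin, had a log2 fold change of -1.38 ± 0.35 (adjusted p = 0.027) with P14 means of 515 ± 235 and 240 ± 203 CPM, and it was highest in *Col13a1*+ fibroblasts, at 1534 CPM. All other cells together held 535 CPM of *Npnt* in normoxia and 264 CPM in hyperoxia at P14, and the part of free RNA in either difference was not tested.

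Counted by gene list, the 25 lymphatic identity genes had 22 members tested, of which none rose and 2 fell in hyperoxia (*Maf* and *Nr2f2*), with a median log2 fold change of -0.13 against -0.00 over all genes tested. For this and the lists that follow, 1.56% of all genes tested rose and 0.909% fell. All lists were chosen with earlier results of these data known, so that their counts are no independent evidence. Of the 4 defining markers, *Mmrn1* (log2 fold change -0.02), *Flt4* (-0.00), *Ccl21a* (-0.27, edgeR adjusted p = 0.27) and *Prox1* (-0.32, adjusted p = 0.30) did not pass the test. At P14 *Prox1* ranged from 642 to 1162 CPM in normoxia and from 436 to 592 CPM in hyperoxia, without overlap, and did not pass there either (-0.64, adjusted p = 0.14). Of the 30 genes of the VEGF-C pathway 12 were tested and 1, *Kdr*, fell. Of 37 matrix and TGF-beta genes 20 were tested, 3 rose (*Id1*, *Igfbp7*, *Col4a2*) and none fell. Of 29 antioxidant and metal stress genes 11 were tested and 2 rose (*Gpx1*, *Fth1*), and of 21 p53 target genes 5 were tested and 1 rose (*Bax*), with a median of 0.84. The call of *Bax* over all ages (log2 fold change 0.84 ± 0.23, adjusted p = 0.044) was lost for 18 of the 29 mice left out, with the pool as block (adjusted p = 0.052) and with thinned cells (adjusted p = 0.24). None of the 9 leukocyte trafficking genes, 14 junction and valve genes, 6 proliferation genes and 20 immediate early and heat shock genes tested was called. Of 19 genes that the study itself had picked from these mice as hyperoxia genes of capillaries, and which are therefore no independent evidence, 8 were tested and 1 rose (*Igfbp7*).

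The ages differed in how many genes were called. In the model with 6 groups, 53 of 1873 genes rose at P14 (2.83%) and 48 fell (2.56%), 101 genes or 5.39% in all, and 63 with the pool as a replicate block. At P7, 2 rose and 2 fell (0.107% each, 7 in all with the block), and at P3 none was called (0.0%; 101 genes had an unadjusted p below 0.05 there, and DESeq2 also called none). The P14 number was 38 and 60 without normoxic replicates 3 and 6, and 33 and 66 without hyperoxic replicates 5 and 6. Counts at separate ages do not test a difference between ages. That test, of the P14 against the P3 effect, called 8 genes (0.427%). Of the P14 genes picked for naming, 8 of 22 lost the call with the pool as block. They were *Plat*, *Nts*, *Gpx1*, *Stmn2*, *Pard6g*, *Gpihbp1*, *Fibin* and *Ypel3*. With at least 10 cells a mouse 18 of 22 lost it. In the fit without the block the P14 pools were uneven, with 3 normoxic mice and 1 hyperoxic mouse in one and 3 of each in the other.

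Targets of the tumour suppressor p53, a mediator of the DNA damage response, were among the genes that rose at P14. *Bax*, the pro-apoptotic pore protein (chromosome 7, 45461697 to 45466898, minus strand), was at 140, 191, 130, 183, 134 and 139 CPM in the 6 normoxic mice and at 448, 423, 685 and 812 CPM in the 4 hyperoxic mice, with no overlap. Its log2 fold change was 1.93 ± 0.33 (edgeR adjusted p = 0.00056). At P7 normoxic mice ranged from 135 to 424 CPM and hyperoxic mice from 102 to 382 CPM, and at P3 from 141 to 467 and from 151 to 453 CPM. The groups overlapped widely at both ages. *Phlda3*, an inhibitor of AKT that p53 induces (chromosome 1, 135766119 to 135769136, plus strand), ranged from 0 to 100 CPM in normoxia and from 140 to 345 CPM in hyperoxia, a log2 fold change of 2.50 ± 0.58 (adjusted p = 0.013). *Rps27l*, a ribosomal protein S27 relative encoded by a p53 target (chromosome 9, 66946086 to 66949516, plus strand), was at 230 ± 65.9 CPM and 915 ± 185 CPM at P14, again apart, and at 408 ± 95.8 and 445 ± 112 CPM at P3. Its hyperoxia effect was greater at P14 than at P3 by 1.70 ± 0.34 on the log2 scale (adjusted p = 0.0085), while the same difference for *Bax*, 1.64, did not pass (adjusted p = 0.10). That call of *Rps27l* was lost with thinned cells and with at least 10 cells a mouse.

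The canonical p53 target *Cdkn1a* (the cell cycle inhibitor p21), had 182 ± 99.5 CPM in normoxia and 544 ± 263 CPM in hyperoxia at P14 without overlap, and did not pass (log2 fold change 1.49 ± 0.51, edgeR adjusted p = 0.069). *Gdf15*, a stress cytokine, spanned 0 to 385 and 207 to 756 CPM (adjusted p = 0.13). Of the 6 genes of the p53 target list tested at P14, 2 rose (*Bax* and *Phlda3*), where 2.83% of all genes did, and none fell. Their median log2 fold change was 1.71 against -0.02 over all genes. *Rps27l* was not on that list. The list has 21 members, most of them not tested here. It was chosen with earlier results of these data known, so that these counts are no independent evidence. *Bax*, *Phlda3* and *Rps27l* were also higher in all other cells together in hyperoxia at P14, at 385, 239 and 753 CPM against 126, 52.3 and 282 CPM.

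*Ccnd1*, *Adamts5*, *Nts*, *Col4a1*, *Col4a2* and *Plat* were also among the genes that rose at P14. Of their lists, 1 of the 8 proliferation genes tested rose, with a list median of -0.58 on the log2 scale, and 3 of the 22 matrix and TGF-beta genes, with a median of -0.14. Over all genes 2.83% rose and the median was -0.02. *Ccnd1* (cyclin D1) ranged from 17.3 to 100 CPM in normoxia and from 172 to 415 CPM in hyperoxia, without overlap (log2 fold change 2.25 ± 0.39, edgeR adjusted p = 0.00056). *Adamts5*, a proteoglycan-cleaving protease, ranged from 0 to 117 and from 122 to 379 CPM (2.50 ± 0.57, adjusted p = 0.011). *Nts* ranged from 122 to 835 and from 862 to 2128 CPM (2.04 ± 0.60, adjusted p = 0.043). The collagen IV chains *Col4a2* (1.07 ± 0.25, adjusted p = 0.013) and *Col4a1* (0.82 ± 0.22, adjusted p = 0.029) rose from 232 ± 63.5 to 522 ± 84.2 CPM and from 685 ± 156 to 1270 ± 518 CPM. *Plat*, tissue plasminogen activator, was at 69.0, 9.40, 1121 and 252 CPM in the hyperoxic mice against 7.66 to 122 CPM in normoxia, so that its log2 fold change of 2.81 ± 0.72 (adjusted p = 0.023) rested on replicates 5 and 6.

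The antioxidant and metal stress list gave 3 rises and 1 fall among its 13 members tested, where 2.83% of all genes rose and 2.56% fell. Its median log2 fold change was 0.59 against -0.02 over all genes. *Hmox1*, heme oxygenase-1, was at 1379, 141, 166 and 154 CPM in hyperoxia and at 0 to 90.5 CPM in normoxia (2.38 ± 0.52, edgeR adjusted p = 0.0092). *Ftl1*, the ferritin light chain, was at 6793, 1090, 1371 and 1302 CPM against 871 to 1559 CPM (1.18 ± 0.31, adjusted p = 0.023). In both genes hyperoxic replicate 1 stood far above the others. Without it the fold changes were 1.17 (adjusted p = 0.074) and 0.17 (adjusted p = 0.60), so that neither call held. That mouse had 6 lymphatic cells, and its immune markers summed to 517 CPM, beside 160, 1516 and 182 CPM in the other hyperoxic mice and 167 to 835 CPM in normoxia. *Hmox1* and *Ftl1* were highest in alveolar macrophages, at 420 and 15229 CPM, and the part of free or macrophage RNA was not tested. *Gpx1* (1.03 ± 0.27, adjusted p = 0.023) did not overlap between the groups, with 153 to 245 and 263 to 727 CPM, and *Txnip*, an inhibitor of thioredoxin, fell from 740 to 1338 CPM in normoxia to 276 to 685 CPM in hyperoxia, also apart (-1.0 ± 0.25, adjusted p = 0.019).

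Among the genes that fell at P14, *Stmn2*, a microtubule regulator also present in blood endothelium, went from 153 to 551 CPM in normoxia to 0 to 113 CPM in hyperoxia (-2.26 ± 0.56, edgeR adjusted p = 0.021). At P3 its means lay the other way, at 115 ± 76.7 and 257 ± 152 CPM, and the difference between the effects was -3.65 ± 0.78 (adjusted p = 0.014). *Pard6g*, a cell polarity gene and member of the lymphatic identity list, fell from 786 ± 155 to 452 ± 146 CPM (-0.88 ± 0.23, adjusted p = 0.023). *Gpihbp1*, the lipoprotein lipase anchor of capillaries, ranged from 156 to 436 CPM in normoxia and from 0 to 103 CPM in hyperoxia (-2.06 ± 0.62, adjusted p = 0.044), and its call was lost for 12 of the 29 mice left out. gCap cells held the most of it, at 963 CPM, and the other cells together went from 177 to 26.2 CPM while gCap cells fell as a share of the lung, and the part of free RNA was not tested. *Fibin*, likewise on the list of blood endothelial markers, was at 0 in 3 of the 4 hyperoxic mice and at a mean of 74.7 ± 91.3 CPM in normoxia, for which no fold is given.

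The remaining genes with an effect that differed between P14 and P3 were *Cd81*, a tetraspanin (605 ± 229 and 491 ± 64.2 CPM in normoxia and hyperoxia at P3, 286 ± 66.7 and 813 ± 200 CPM at P14), *Ccnd2* (cyclin D2), *Actg1* (gamma-actin), *Aplp2*, *Snrk* and *Gpm6a*. *Cd81*, *Ccnd2* and *Actg1* had the more positive effect at P14 (1.79 ± 0.32, 2.21 ± 0.47 and 1.17 ± 0.25 on the log2 scale, with edgeR adjusted p of 0.0044, 0.014 and 0.014), and the other 3 the more negative. The number of such genes was 5 without P3 normoxic replicates 1 or 2 or P3 hyperoxic replicate 5, and 3 without P14 hyperoxic replicate 5. None of the 8 calls held with thinned cells or with at least 10 cells a mouse, and 7 were lost with all mice and 2, *Stmn2* and *Snrk*, with the pool as block. The *Gpm6a* call was lost for 20 and the *Snrk* call for 9 of the 29 mice left out. The number was 14 without P3 normoxic replicate 5, 13 without P3 hyperoxic replicate 4 and 14 without P14 hyperoxic replicate 4.

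At P7, *Ednrb*, the endothelin B receptor, was at 181, 169, 117, 97.4 and 189 CPM in normoxia and at 639, 453, 411, 397 and 211 CPM in hyperoxia, without overlap (1.48 ± 0.32, edgeR adjusted p = 0.032). *Ndufv2*, a subunit of respiratory complex I, also did not overlap, at 70.7 to 98.8 and 161 to 249 CPM (1.04 ± 0.23, adjusted p = 0.032). *Gm13889*, an uncharacterised gene, fell from 47.1 to 375 CPM to 15.3 to 53.7 CPM (-2.63 ± 0.55, adjusted p = 0.032), with overlap. The fourth gene was the globin *Hbb-bs*, at 22827 CPM in 1 normoxic mouse and at most 166 CPM in the other 4. The P7 number fell to 0 without hyperoxic replicate 1, 2, 3 or 4, to 1 without hyperoxic replicate 6 or normoxic replicate 2, 3 or 4, and to 2 without P14 normoxic replicate 2, and it was 9 without P3 normoxic replicate 5 and 7 without P14 normoxic replicate 3. Beside these, *Lyve1* had 1218 ± 294 CPM in normoxia and 2319 ± 382 CPM in hyperoxia, apart, and *Nrp2* 1514 ± 379 and 850 ± 277 CPM, but neither passed (adjusted p = 0.070 and 0.13).

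The ages were compared in normoxic mice. From P3 to P14, 123 of 1873 genes rose (6.57%) and 109 fell (5.82%), 232 or 12.4% in all. From P7 to P14, 63 rose (3.36%) and 34 fell (1.82%), and from P3 to P7 only *Hbb-bs* was called (0.0534%), a call that was lost in 20 of the 25 fits without 1 mouse in which *Hbb-bs* could be tested. Without the mouse with high globin it did not pass the count filter. P14 mice were in pools of their own, so that age and pool cannot be told apart in the comparisons with P14. The paper also gives as a limitation that males and females were unequal in number at P3 and P7, but equal at P14. Sex was not a term in any model here, for age or for oxygen. Each pool held mice of both oxygen levels. The number from P3 to P14 was 146 and 135 without P3 normoxic replicates 2 and 3. That from P7 to P14, 97 genes or 5.18%, was 61, 55, 50 and 62 without P7 normoxic replicates 1, 2, 3 and 6, and 51, 41 and 63 without P14 normoxic replicates 2, 3 and 6. *Prox1* (0.29, edgeR adjusted p = 0.48) and *Ccl21a* (-0.35, adjusted p = 0.30) did not pass between P3 and P14. Of the genes picked for naming from P3 to P14, 18 of 35 lost the call with at least 10 cells a mouse. Without the count filter 11 of 35 lost it, and with all mice 8 of 31. From P7 to P14, 10 of 23 lost it with at least 10 cells a mouse.

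Of the 22 lymphatic identity genes tested, 10 were higher at P14 than at P3 and none lower, where 6.57% of all genes rose. The median log2 fold change of the list was 0.83 against 0.03 over all genes. Other endothelial lists moved alike. All 7 blood endothelial markers tested lay above 0, with a median of 0.50, though none was called. All 15 genes of the VEGF-C pathway tested did too, with a median of 0.59, and 3 were called. *Mmrn1* ranged from 1146 to 1638 CPM at P3, from 1492 to 2045 CPM at P7 and from 2445 to 3279 CPM at P14, and its P14 mice lay above all younger ones (1.23 ± 0.16, edgeR adjusted p = 1e-05). *Maf* went from 467 ± 127 CPM at P3 to 1158 ± 325 CPM at P14, without overlap (1.34 ± 0.24, adjusted p = 0.00049), and *Nr2f2* from 409 ± 109 to 760 ± 163 CPM, with overlap (0.92 ± 0.20, adjusted p = 0.0032). The others were *Reln* (1.09 ± 0.27, adjusted p = 0.0076), the guidance ligand *Sema3d* (1.17 ± 0.32, adjusted p = 0.016), *Flt4* (0.78 ± 0.21, adjusted p = 0.016), *Pdpn* (1.24 ± 0.37, adjusted p = 0.025), *Lyve1* (0.87 ± 0.26, adjusted p = 0.023), *Thy1*, and *Itga9* (1.05 ± 0.33, adjusted p = 0.031), the integrin chain that lymphatic valves need. With the stricter minimum of 10 cells a mouse, 2 of the list were called. *Maf* and *Nr2f2* thus were higher at P14 than at P3 in normoxia and lower in hyperoxia over all ages. Neither was called for hyperoxia at any single age. The age and oxygen contrasts share the normoxic P14 mice. *Mmrn1* did not pass between oxygen levels at P14, at 2616 ± 379 CPM in hyperoxia and 2966 ± 284 CPM in normoxia (-0.23, adjusted p = 0.36).

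**Figure D4:**
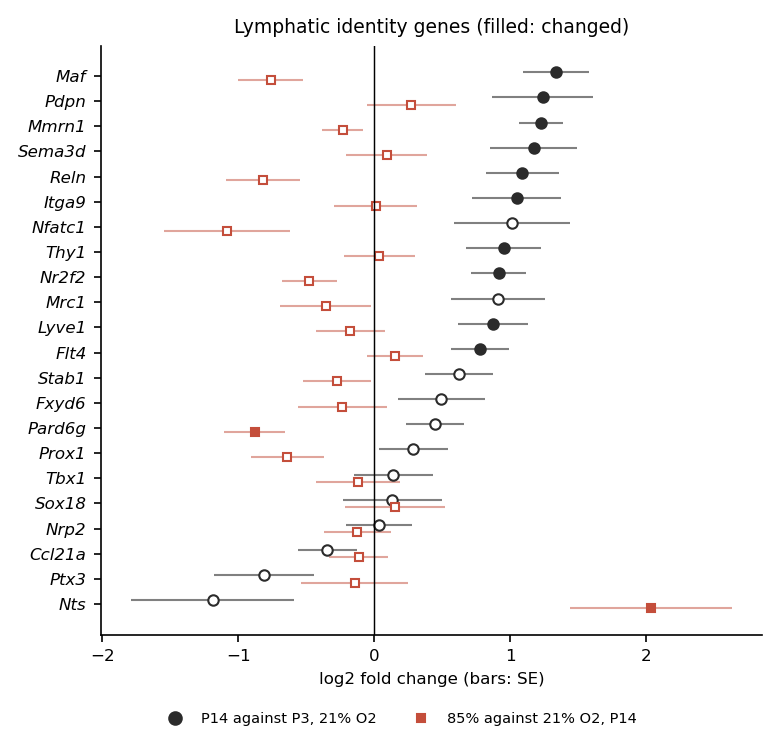
Log2 fold change with its SE (horizontal axis) of each tested lymphatic identity gene (vertical axis) in lymphatic cells, for P14 against P3 in normoxia (black circles) and for hyperoxia against normoxia at P14 (red squares). Filled symbols passed the test. With age 10 of 22 genes rose, beside 6.57% of all genes. At P14 in hyperoxia *Nts* rose and *Pard6g* fell, beside 2.83% and 2.56% of all genes. Both of these calls were lost with the pool as block.

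The chemokine gene *Ccl21a* took another course. It stood at 6793 ± 1146 CPM at P3, 9529 ± 1532 CPM at P7 and 5224 ± 622 CPM at P14, and P7 and P14 did not overlap (-0.82 ± 0.20, edgeR adjusted p = 0.016). In hyperoxia at P7 it ranged from 5097 to 8845 CPM, partly below the 7687 to 11657 CPM of normoxia, and did not pass (-0.56, adjusted p = 0.35).

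*Timp3*, other matrix genes and 3 genes of MHC class I also rose from P3 to P14. *Timp3*, a tissue inhibitor of metalloproteinases, went from 548 ± 200 CPM at P3 to 1648 ± 300 CPM at P14, without overlap (1.64 ± 0.26, edgeR adjusted p = 0.00018). *Igfbp5* ranged from 0 to 174 CPM at P3 and from 84.3 to 1579 CPM at P14 (3.00 ± 0.88, adjusted p = 0.022). Of the 22 matrix and TGF-beta genes tested 7 rose and none fell, where 6.57% of all genes rose, among them *Timp2*, *Ltbp4*, *Tgfbr2* and *Lama4*. *H2-K1* and *H2-D1*, heavy chains of MHC class I, and *B2m*, their light chain, were the 3 of 15 members of the inflammation and interferon list tested that rose, and the list's median log2 fold change was 0.04 against 0.03 over all genes. *H2-K1* went from 126 ± 71.3 to 555 ± 262 CPM, without overlap (2.03 ± 0.40, adjusted p = 0.0011), and *B2m* from 263 ± 86.9 to 648 ± 224 CPM (1.28 ± 0.36, adjusted p = 0.018). *Cp* (ceruloplasmin, a copper-carrying ferroxidase) went from 69.1 ± 25.0 to 493 ± 198 CPM, also apart (2.95 ± 0.44, adjusted p = 8.5e-05). *Pecam1* rose from 269 ± 52.2 to 537 ± 119 CPM (0.98 ± 0.21, adjusted p = 0.0024).

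Some proliferation and imprinted genes fell from P3 to P14. Of the 8 proliferation genes tested, 3 were lower at P14 than at P3 and none higher, where 5.82% of all genes fell. The list median was -0.62, and none was called from P7 to P14. *Pclaf*, a replication factor that binds PCNA, ranged from 17.6 to 149 CPM at P3 and from 0 to 30.6 CPM at P14 (-3.71 ± 1.05, edgeR adjusted p = 0.019), and *Stmn1* and *H2afz* were the other two. *Lgals1* (galectin-1) fell from 339 ± 233 to 68.1 ± 23.5 CPM (-2.26 ± 0.43, adjusted p = 0.00073). The stromal and mesothelial markers summed to 881 and 778 CPM in P3 normoxic replicates 2 and 3. They summed to 127 and 128 CPM in replicates 1 and 5, and to 107 to 244.5 CPM in normoxia at P14. The part of other cells' RNA in the differences between ages was not tested. Of the imprinted growth genes only 3 were tested and 2 fell, beside the same 5.82% of all genes. *H19* ranged from 764 to 1513 CPM at P3 and from 80.5 to 573 CPM at P14, without overlap (-1.80 ± 0.51, adjusted p = 0.019), and *Gnas* from 3162 to 9062 and from 2092 to 3747 CPM (-0.95 ± 0.22, adjusted p = 0.0038).

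How the lymphatic response compared with that of venous, gCap and aCap cells was tested in the same mice, with the mouse as a fixed term and the difference between the types' hyperoxia effects as the tested value. The 3 comparisons share the lymphatic counts. Against venous cells 74 of 2481 genes differed (2.98%), of which 27 had the higher response in lymphatic cells (1.09%) and 47 the lower (1.89%). Against gCap cells 165 of 5792 differed (2.85%; 45 higher, 0.777%, and 120 lower, 2.07%), and against aCap cells 291 of 4695 (6.2%; 138 higher, 2.94%, and 153 lower, 3.26%). With no more cells of the other type per mouse than lymphatic cells, and so fewer genes past the filter, the numbers were 44 of 1775 (2.48%), 53 of 1516 (3.50%) and 70 of 1411 (4.96%). They rest on a single random draw of cells, as do the calls of single genes given below with matched cell numbers. The number against venous cells lay between 32 and 49 when 1 of these mice was left out: at P3 normoxic replicate 5 and hyperoxic replicate 2, at P7 normoxic replicates 2, 3, 4 and 6 and hyperoxic replicates 1, 2 and 3, and at P14 normoxic replicates 1, 2, 5 and 6 and hyperoxic replicates 1 and 4.

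The p53 targets that differed had the lower response in lymphatic cells. *Bax* rose from 212 ± 105 CPM to 373 ± 194 CPM in lymphatic cells over all ages (15 and 14 mice), from 164 ± 57.2 to 659 ± 176 CPM in venous, from 201 ± 33.6 to 724 ± 143 CPM in gCap and from 254 ± 53.3 to 785 ± 204 CPM in aCap cells. The difference of log2 responses, lymphatic minus other, was -1.21 ± 0.25 (edgeR adjusted p = 0.0048), -1.0 ± 0.22 (adjusted p = 0.0028) and -0.80 ± 0.21 (adjusted p = 0.013). *Cdkn1a* differed from gCap cells by -1.37 ± 0.30 (adjusted p = 0.003), and *Gdf15* from all 3 types, by -2.62 ± 0.76 (adjusted p = 0.048) from venous cells, where it went from a mean of 10.7 to 166 CPM while lymphatic cells had a median of 22.6 CPM in normoxia, with 1 mouse at 1316 CPM, and 282 CPM in hyperoxia. The *Gdf15* call against venous cells was lost for 21 of the 29 mice left out. With no more cells of the other type than lymphatic cells, the *Bax* call held against venous cells and was lost against gCap (adjusted p = 0.064) and aCap cells (adjusted p = 0.075), and those of *Cdkn1a* and *Gdf15* were lost. Of the p53 target genes tested, 2 of 7, 5 of 14 and 3 of 13 had the lower lymphatic response against venous, gCap and aCap cells, and none the higher. Over all genes tested 1.89%, 2.07% and 3.26% had the lower response. As the list was chosen with earlier results of these data known, these counts are no independent evidence. The study's own hyperoxia genes of capillaries had a lower lymphatic response for 0 of 12 against venous, 7 of 17 against gCap and 6 of 17 against aCap cells. They were chosen on these mice for their response in capillaries, so that nothing is read from these counts. In arterial cells, whose difference from lymphatic cells was not tested, the log2 fold change of *Bax* was 0.14 ± 0.14 (adjusted p = 0.72).

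*Kdr* moved in opposite directions in lymphatic and gCap cells. It went from 736 ± 205 to 522 ± 156 CPM in lymphatic and from 480 ± 89.2 to 854 ± 237 CPM in gCap cells, a difference of -1.30 ± 0.15 (edgeR adjusted p = 1.3e-07), and in aCap cells it stood at 1805 ± 173 and 1763 ± 248 CPM (difference -0.46 ± 0.12, adjusted p = 0.015). *Timp3* rose in gCap cells, from 293 to 1013 CPM, and stood at 1086 and 1022 CPM in lymphatic cells (-1.60 ± 0.23, adjusted p = 8.7e-06). *Lyve1*, with 678 ± 182 and 1701 ± 469 CPM in gCap cells and 1236 ± 480 and 1708 ± 591 CPM in lymphatic cells, differed by -0.81 ± 0.17 (adjusted p = 0.0026). In hyperoxia gCap cells thus reached the level of lymphatic cells. With matched cell numbers the calls of all 3 genes against gCap cells held, and that of *Kdr* against aCap cells was lost (adjusted p = 0.21).

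Genes with the higher lymphatic response included *Fbln2*, the matrix protein fibulin-2, and *Tgm2* against aCap cells. *Fbln2* was at 184 and 221 CPM in normoxic and hyperoxic lymphatic cells and at 55.4 and 8.13 CPM in aCap cells (3.15 ± 0.41, edgeR adjusted p = 5.3e-07), and *Tgm2* was at 148 and 242 against 28.1 and 8.77 CPM (2.54 ± 0.35, adjusted p = 1.6e-06). *Gas6* differed by 2.24 ± 0.28 (adjusted p = 3.6e-07) from aCap cells. Its own log2 fold change in the other types was 1.20 ± 0.22 in venous cells (adjusted p = 8e-05), 0.24 ± 0.14 in gCap (adjusted p = 0.19) and -0.44 ± 0.22 in aCap cells (adjusted p = 0.11). *Calcrl*, the receptor chain for adrenomedullin, stood at 202 and 201 CPM in lymphatic cells and went from 1480 to 511 CPM in aCap cells (1.47 ± 0.25, adjusted p = 8e-05). Against venous cells, the connexin genes *Gja4* (168 and 138 CPM in lymphatic, 88.5 and 15.8 CPM in venous cells, 1.79 ± 0.41, adjusted p = 0.011) and *Gja1* (435 and 327 CPM against 1.04 and 10.0 CPM, -2.66 ± 0.58, adjusted p = 0.0072) differed in opposite directions. *Gja1* lay near the floor in venous cells, and genes were filtered on both types together, so that its venous response is poorly measured. *Socs3*, an inhibitor of cytokine signalling, was at 320 and 572 CPM in lymphatic and at 714 and 504 CPM in venous cells (1.27 ± 0.28, edgeR adjusted p = 0.0072). With matched cell numbers the calls of *Fbln2* and *Calcrl* against aCap and of *Gja4*, *Gja1* and *Socs3* against venous cells held, and *Tgm2* and *Gas6* were not among the genes tested. Of all genes picked for naming and tested that way, 9 of 20 against venous, 14 of 26 against gCap and 25 of 42 against aCap cells lost the call.

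The depth of lymphatic cells was compared between oxygen levels, alone and relative to the other endothelial types. At P14 the mouse medians of lymphatic cells averaged 4280 ± 760 UMIs a cell in normoxia and 4842 ± 1752 in hyperoxia (SD, exact permutation test, adjusted p = 0.857). The medians of these mouse medians were 4114.75 and 4110.5. Without hyperoxic replicate 5, at 7425 UMIs, the difference in means was -298.8. The ranges of mouse medians that follow are for P14 mice with at least 5 lymphatic cells and 5 cells of the other type. Venous cells ranged from 1071 to 4027 UMIs in normoxia and from 6852 to 11807 in hyperoxia. In gCap cells the ranges were 1888 to 2248 and 3795 to 5078, and in aCap cells 1724 to 2418 and 3945 to 5958. Over all hyperoxic mice with at least 5 venous cells, the highest venous median was 13923.5 UMIs. The log2 ratio of lymphatic to other UMIs was chosen for testing after the data were seen, so that its p-values are no independent evidence. The ratio was lower in hyperoxia, by 1.51 for venous, 1.01 for gCap and 1.22 for aCap cells, without overlap (6 against 4 mice, exact permutation tests, p = 0.00476, the smallest possible, adjusted p = 0.0190). For arterial cells the difference was -0.17 (exact permutation test, adjusted p = 0.559). At P3 and P7 no such ratio passed for any of the 4 types (exact permutation tests, adjusted p = 0.381 to 0.611 at P3 and 0.0714 to 0.559 at P7).

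The same model over the same 29 mice called 33.5% of the genes tested in venous, 29.4% in gCap, 38.2% in aCap and 3.25% in arterial cells for hyperoxia over all ages, beside 2.47% in lymphatic cells. In each of 5 draws of as many cells per mouse as there were lymphatic cells the values were 26.3% to 31.5%, 13.2% to 18%, 22.0% to 26.4% and 1.30% to 2.99% in the same order. These percentages are over different genes and depths and were not tested against each other, and the part of the greater depth in hyperoxia was not tested.

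**Figure D5:**
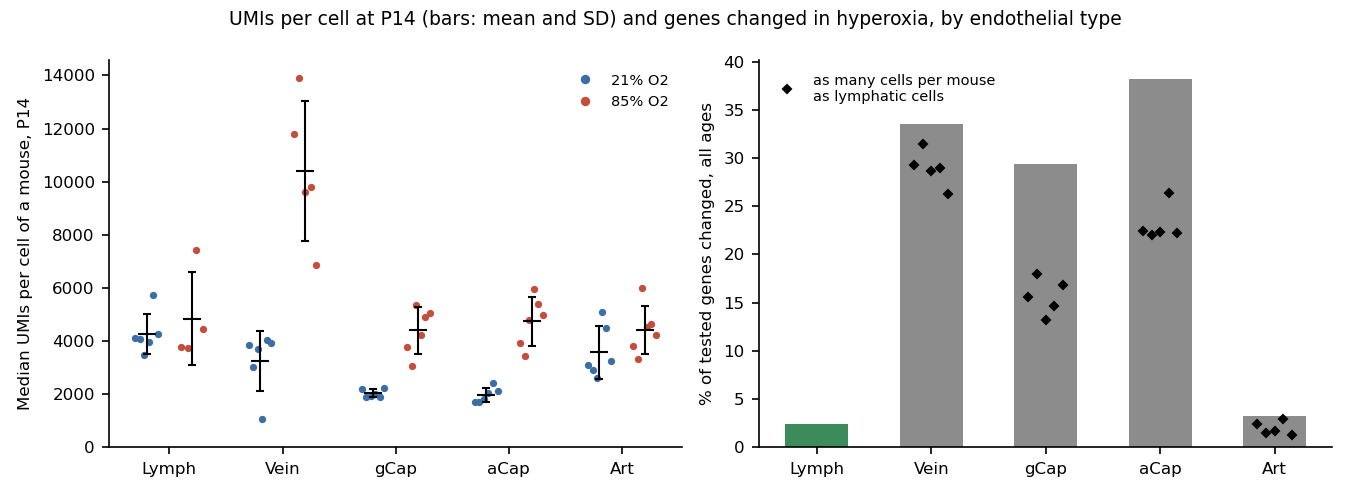
Left, median UMIs a cell of each mouse at P14 (vertical axis) for 5 endothelial types, normoxic mice in blue and hyperoxic mice in red. Right, percent of tested genes called changed by hyperoxia over all ages in each type (bars) and in 5 draws with as many cells per mouse as lymphatic cells (diamonds). Lymphatic and arterial cells show overlapping depths at P14. They also show the lowest percentages over all ages, 2.47% and 3.25%.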

How the data were processed

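Whole-lung single-cell libraries of 36 mice were analysed from the authors' deposited files. Reads had been aligned to mm10 and counted by the authors with Cell Ranger 3.0.2, and the values used were the deposited UMI counts per gene and cell. The authors had assigned cells to mice and removed multiplets with deMULTIplex, filtered cells, normalized each mouse's cells with SCTransform, integrated the mice with Seurat, and clustered and annotated the cells. The deposited cell table gave each cell's type, library, sample barcode, age and oxygen level, and the percent of its counts from mitochondrial genes. A mouse was taken here as a combination of pool and sample barcode. Both libraries labelled with P3 and P7 together were treated as the same pool. No doublet caller was run here, so that doublets of cells of the same mouse remain. The members, gene lists and named genes were chosen with earlier results of these data known. Picked for naming were the 4 markers, for each list the members that changed and up to 4 that did not (the most abundant first), receptors and ligands of the VEGF-C pathway, and the changed genes with the largest increases and decreases, 10 each over all ages and 5 each in every other comparison. Not all genes so picked are printed. *Ppp1r14b*, *Kctd12* and *Rasgrp3* over all ages are among those left out. *Ifitm3*, *Cdkn1a* and *Gdf15* were named after their values were seen.

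Counts of lymphatic cells were summed per mouse (at least 5 cells) and tested with edgeR 4.0.16 in R 4.3.3 (TMM scaling, filterByExpr with a minimum count of 10, glmQLFit and glmQLFTest, Benjamini-Hochberg adjustment over all genes tested). CPM divide a gene's count by the summed counts of the type in that mouse. The 6 groups held 282256 to 603098 lymphatic UMIs, and a count of 10 is coarse at that depth. The detection shares used 1000 UMIs a cell and the thinned fit at most 4000. Shares of cells and UMIs per cell were compared by exact two-sided permutation tests in Python 3.11.15 with scipy 1.17.1. Alternatives were DESeq2 1.42.0, no filter, other minimum numbers of cells, thinned cells, cells whose assigned sample barcode was the highest (chosen after seeing the data), the pool as a block, and leaving out each mouse. Replicate numbers were given here, by pool and then by sample barcode within each age and oxygen level. Mice with the same number in an age thus shared a pool. Lymphatic sums of the same pool had a median correlation of deviations of 0.0504 (58 pairs) against -0.00763 for other pools (291 pairs). The pool of a mouse therefore rests on the library labels. Scripts were tested on simulated data. Positions are GRCm38 (GENCODE vM21). Pups born on the same day had been assigned at random to nursing dams at birth, and which mice of a group shared a litter is not given in the sources used here.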

Additional observations from a re-analysis of the deposited data

Results flagged for a closer look

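In 108 groups of 4 to 6 mice examined for a single mouse far from the rest, 10 had one, and chance alone flags about 1 in 20. They were the median of 5726 UMIs per lymphatic cell in P14 normoxic replicate 5, *Prox1* at 436.1 CPM in 1 P14 hyperoxic mouse, *Mmrn1* at 1638.2 CPM in 1 P3 and 2045.1 CPM in 1 P7 normoxic mouse, *Ccl21a* at 11956 CPM in 1 P3 hyperoxic mouse and *Phlda3* at 100.4 CPM in 1 P14 normoxic mouse. *Hmox1* stood at 177.6 CPM in 1 P7 hyperoxic mouse and at 1379.3 CPM in P14 hyperoxic replicate 1, and *Hbb-bs* at 22827 CPM in P7 normoxic replicate 6 and at 20.11 CPM in 1 P14 normoxic mouse.

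For 8 genes the interaction term in edgeR was past the threshold, but none of these calls held with thinned cells or with at least 10 cells a mouse. The difference of log2 fold changes, P14 minus P3, was 1.786 for *Cd81*, 1.701 for *Rps27l*, 1.175 for *Actg1*, 2.206 for *Ccnd2*, -1.288 for *Aplp2*, -3.653 for *Stmn2*, -1.717 for *Snrk* and -1.527 for *Gpm6a*. Between cell types, 74 genes differed in their response from venous cells, 165 from gCap cells and 291 from aCap cells.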

How the results depend on the processing

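Numbers of genes called are given for each alternative that moved them by over 1.5 times, and the cause was not tested. For hyperoxia over all ages (38 genes), they were 16 with thinned cells, 23 with cells whose assigned sample barcode was the highest (added after seeing the data), 11 with at least 10 cells a mouse, 18 without age as covariate, 110 without the count filter and 69 with the pool as replicate block. At P3 (0) the number was 21 without the filter. At P7 (4) it was 0 thinned, 2 by DESeq2, 11 with 10 cells, 44 without the filter and 7 with the replicate block. At P14 (101) it was 44 with all mice, 25 thinned, 29 with 10 cells and 63 with the block. For P14 against P3 effects (8) it was 2 with all mice, 0 thinned, 13 by DESeq2, 1 with 10 cells and 35 without the filter. From P3 to P7 (1) it was 0 with all mice, thinned, by highest barcode, by DESeq2 and with the block, 2 with 10 cells and 19 without the filter. From P7 to P14 (97) it was 64 with 10 cells, and from P3 to P14 (232) 106 with all mice, 136 with 10 cells and 149 without the filter. No block could be fitted against P14, whose pools held no other age. The difference from venous cells (74) was 46 without a mouse term and 44 with matched cells, that from gCap cells (165) 53 and from aCap cells (291) 70 with matched cells. These matched numbers rest on a single random draw of cells.

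Leaving out 1 mouse gave 20 to 54 genes over all ages, 0 to 0 at P3, 0 to 9 at P7, 33 to 124 at P14, 3 to 14 for the P14 against P3 effect, 0 to 2, 41 to 121 and 135 to 275 for P7 against P3, P14 against P7 and P14 against P3, and 32 to 80 against venous cells. The difference in median UMIs ranged from -540.6 to 2635 at P3, from -882.4 to 806.4 at P7 and from -298.8 to 935 at P14.

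The difference in share changed sign as a percent of endothelial cells (+0.340, +0.752 and +0.668 points at P3, P7 and P14, and -0.336, -0.457 and -0.792 for P7 against P3, P14 against P7 and P14 against P3), at P7 without the mouse with the fewest cells (+0.0872), and at P7 by edgeR on cell numbers (log2 0.176), none of which passed a test. Of the values for single genes, 4394 kept direction and side of the threshold, 906 lost the call, and 2 changed sign (*Hbb-bs* at P7, 1.36 with 10 cells and 1.05 by highest barcode). At 4 to 6 mice a group and 5 to 24 cells a mouse, many small differences and genes of few counts are missed. Of simulated 1.5-fold changes, 60% were recovered over all ages and 8% at P14, and of 2-fold changes 98% and 78%. The simulation changed 200 of 1541 genes, more than were called in the data. As this loosens the adjusted threshold, these shares may be too high for the data. Its P14 step used the genes and spread of the fit over all ages.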

Other observations

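The ligands that lymphatic cells respond to were measured in the same lungs, here as mean CPM in normoxia and hyperoxia. *Vegfc* was highest in venous cells (424 and 278 CPM) and *Vegfd* in *Col13a1*+ fibroblasts (423 and 379 CPM), while lymphatic cells held 4.20 and 4.02 CPM of *Vegfc* and 3.45 and 5.30 CPM of *Vegfd*. *Vegfa* was highest in alveolar type 1 cells (2207 and 1560 CPM). *Ccbe1*, a cofactor of VEGF-C processing, was low even in its highest type, the *Col13a1*+ fibroblasts (14.6 and 18.7 CPM), and the protease *Adamts3* was highest in a pericyte type (12.7 and 4.37 CPM). *Svep1*, a matrix protein of lymphatic development, was highest in *Col13a1*+ fibroblasts (108 and 143 CPM), and *Angpt1*, the agonist of the Tie2 receptor, in a pericyte type (371 and 132 CPM). The one ligand of this group that lymphatic cells held most of at both oxygen levels was *Angpt2* (89.6 and 114 CPM). None of these differences between oxygen levels was tested.

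Some members of 3 gene families, chosen by symbol after their values were seen, were called in lymphatic cells. Of 72 cytosolic ribosomal protein genes tested, 44 fell and none rose from P3 to P14 in normoxia, where 5.82% of all genes tested fell, with a median log2 fold change of -0.495 against 0.03 over all genes, and the same 44 fell with DESeq2. From P7 to P14, 15 fell, beside 1.82% of all genes, with a median of -0.373. Of 12 genes of the mitochondrial genome, 7 rose from P7 to P14 (median 0.58, beside 3.36% of all genes that rose) and none was called from P3 to P14. Of 68 nuclear genes of the respiratory chain and ATP synthase, 7 rose in hyperoxia at P14 (median 0.385), 5 of them also with DESeq2, beside 2.83% of all genes. In the same family 6 fell from P3 to P14 (median -0.295), near the 5.82% of all genes and with the same normoxic P14 mice, and of 64 tested over all ages none was called for hyperoxia. P14 mice had pools of their own, and their lymphatic cells had fewer UMIs than younger ones. In normoxia the mouse medians averaged 4280 ± 760 at P14 and 7608 ± 4441 at P3 (SD). Over all lymphatic cells of these groups the medians were 3962 and 6357 UMIs.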
